A study of Homo sapiens with 4 samples.

Results

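The RNA levels of 38 genes of glycolysis and of the response to low oxygen were examined in human myeloma cells exposed to the compound OSSL_325096. The genes were chosen by name, as the enzymes of glycolysis in pathway order, the carriers of glucose and lactate, the subunits and regulators of the hypoxia-inducible factor HIF, and genes that HIF is known to switch on. All 38 were found among the 57773 genes of the authors' deposited table. KMS12PE and KMS11 are established cell lines of multiple myeloma, a cancer of antibody-secreting plasma cells. Both were treated with 1 µM OSSL_325096, for which the labels give a code name alone, or with the solvent DMSO. The 4 libraries were 1 for each line and treatment, so that each treatment had 2 libraries from different lines and each line alone had no replicate. Neither the time of exposure nor the number of cultures behind a library is given in the labels.

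Glycolysis splits glucose into pyruvate in the cytosol and yields a little ATP without oxygen. Hexokinase traps the sugar, phosphofructokinase commits it to the pathway, and lactate dehydrogenase turns pyruvate into lactate, which leaves through carriers of the SLC16A family. HIF is a pair of an oxygen-sensitive alpha subunit and the stable partner ARNT. With oxygen, prolyl hydroxylases of the EGLN family mark the alpha subunit for destruction by the ubiquitin ligase that holds VHL. Without it, HIF binds promoters and raises glycolytic genes together with genes of blood vessel growth and mitochondrial removal. Plasma cell tumours grow in bone marrow, a tissue with little oxygen.

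The values come from a comparison that the authors made across both lines. Each gene has a p-value, a log2 fold change and a level, which is the mean RPKM (reads scaled by transcript length and by the number of mapped reads) of whichever treatment had the higher mean. The column's header does not name its unit, and RPKM is taken from the series' design text. Single libraries were not analysed here, and depth is unknown. Positive log2 fold changes are read as more RNA after OSSL_325096, since the title of the table names the compound before DMSO. The text rests on the 11324 genes of at least 1 RPKM, of which 36 are members. All 8 plasma cell markers examined lay between 11.4 and 180 RPKM. Of 13 markers of other cell types, 3 were listed at 0 (CD3D, DCN and HBA1), 9 lay above 0 and at or below 0.445 RPKM, and the epithelial adhesion gene EPCAM stood at 15.8 RPKM. In bulk RNA, fewer cells of a type and less RNA per cell cannot be told apart.

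Levels differed widely among the members, and the enzymes of the second phase of glycolysis were among the most abundant. GAPDH (chromosome 12, 6643093 to 6647537, hg19), which makes the first high-energy intermediate of the second phase of glycolysis, had 1001 RPKM in the authors' deposited table and ranked 24 of the 11324 genes. ENO1, the main enolase, had 695 RPKM and ranked 35. The aldolase ALDOA had 224, the triose phosphate isomerase TPI1 161, the pyruvate kinase PKM 145, the phosphoglycerate kinase PGK1 114 and the mutase PGAM1 112 RPKM in the authors' deposited table. Both lactate dehydrogenase subunits were abundant, with LDHB at 194 and LDHA at 132 RPKM. These 9 enzymes were the members above 100 RPKM, against 394 such genes in all.

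In some steps, a single isozyme dominated in the mean over both lines, and levels in each line were not analysed. Hexokinase RNA was mostly HK2, the isozyme many tumours take up, with 21.5 RPKM against 1.46 RPKM for HK1. Enolase RNA was mostly ENO1, since the neuronal form ENO2 had 4.18 RPKM. Aldolase C (ALDOC) had 19.03 RPKM. Phosphofructokinase was shared more evenly, with the platelet form PFKP at 48.2, the liver form PFKL at 29.5 and the muscle form PFKM at 23.8 RPKM. The isomerase GPI, between hexokinase and phosphofructokinase, had 55.03 RPKM. SLC2A1, the gene of the glucose carrier GLUT1, had 8.66 RPKM in the authors' deposited table, while SLC2A3, the gene of GLUT3, was under the limit at 0.555 RPKM. Of the prolyl hydroxylases, EGLN2 had 12.7 and EGLN1 9.43 RPKM, whereas EGLN3 was listed at 0.00553 RPKM. EGLN3 overlaps SPTSSA on the same strand, which had 10.2 RPKM. The deposited log2 fold change and p-value of EGLN3 were the same pair of values as in 191 genes, itself included, so no fold change is read from it.

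**Figure D1:**
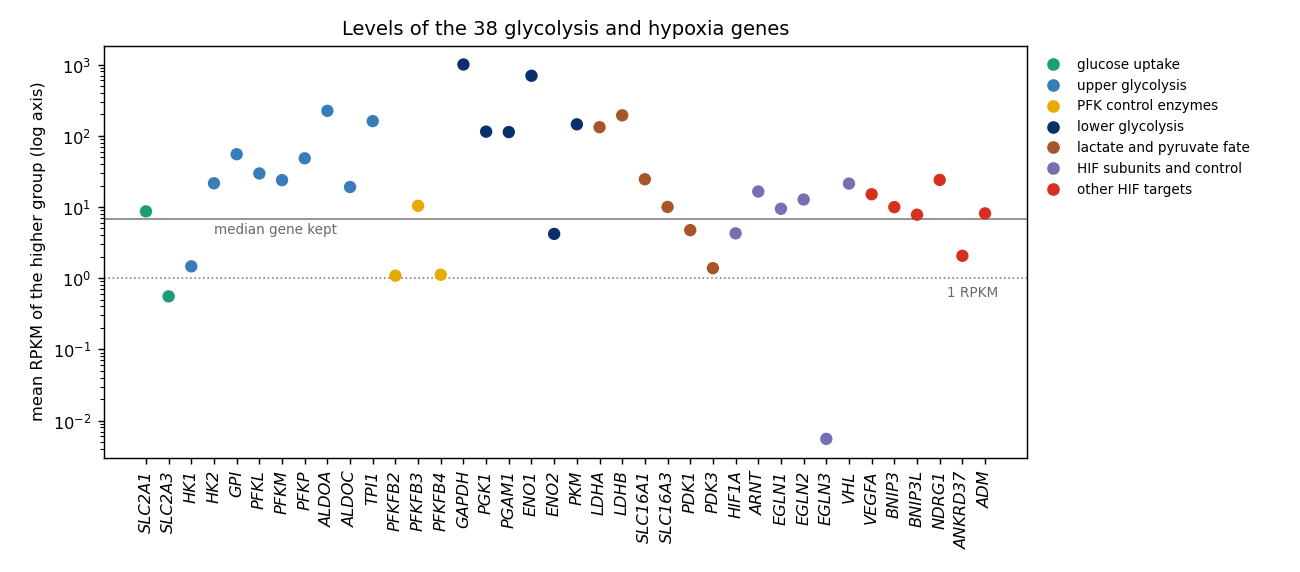
Level of each of the 38 genes (vertical axis, mean RPKM of the higher treatment group, log scale), in pathway order and coloured by role; the solid line is the median of the 11324 genes kept and the dotted line 1 RPKM. GAPDH at 1001 and ENO1 at 695 RPKM stand highest, and SLC2A3 and EGLN3 lie under 1 RPKM.

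The question of whether the compound shifted this program was then put to the comparison of treatments. No member passed the test. Benjamini-Hochberg adjusted p-values, recomputed from the deposited p-values over the 11324 genes, were under 0.05 for 0 members and for 0% of all genes, and the lowest among the members was 0.999909. The unadjusted p was under 0.05 for 0 members and for 5 of the 11324 genes, and among the members it ran from 0.547 to 0.978. By size alone, 2 of the 36 members were at least 1.5-fold higher with OSSL_325096 (PFKFB3 and SLC16A3), or 5.56%, against 4.95% of all genes. At least 1.5-fold lower were 3 members (BNIP3, PFKFB4 and BNIP3L), or 8.33%, against 4.95% of all genes. Both shares lie near the background. The median log2 fold change of the members was 0.04, beside 0.01 over all genes kept, and 24 members (66.7%) lay within 0.32 of 0 on the log2 scale, beside 68.4% of all genes.

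The error implied for each value was large. An implied standard error was obtained by dividing the size of each log2 fold change by the normal quantile that its p-value corresponds to, which is exact only for a two-sided normal test. Its median over the members was 1.02 log2 units, so that at this spread an unadjusted p of 0.05 would take a 4.02-fold difference. For all 36 members the implied 95% interval held 0. GAPDH, with a log2 fold change of 0.04, had an interval of -1.95 to 2.04. The fold changes below are therefore sizes with wide errors, not calls, and a value near 0 does not show that a gene stayed the same. These implied SEs were also wider than the spread of the fold changes. Over the 11324 genes, the quartiles of the log2 fold change were -0.21 and 0.22. The unadjusted p was under 0.05 for 5 genes, where evenly spread p-values would give a share of 0.05. The deposited p-values thus appear conservative, and the implied SEs and intervals may overstate the sampling error. The reason was not tested.

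**Figure D2:**
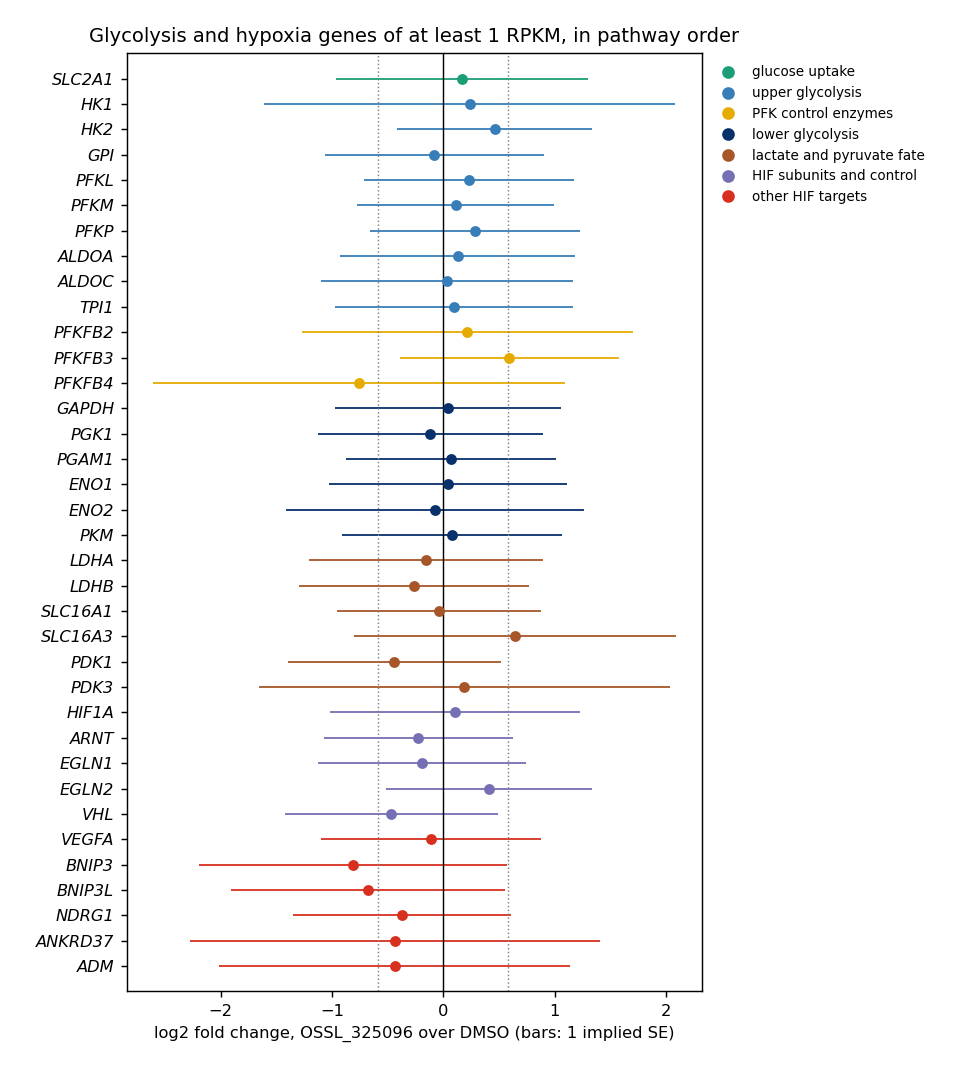
Horizontal axis, log2 fold change (OSSL_325096 over DMSO) of the 36 members of at least 1 RPKM, in pathway order and coloured by role; bars are 1 implied SE and dotted lines mark 1.5-fold. Lower glycolysis lies between -0.12 and 0.08, all 6 of the other HIF targets lie below 0, and no point is more than 1 implied SE from 0.

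The core enzymes of the pathway lay close together. Over 17 enzymes from hexokinase to lactate dehydrogenase, fold changes in the authors' deposited table ran from -0.27 to 0.46 on the log2 scale, with a median of 0.07, and 0 passed 1.5-fold. Within 0.32 of 0 on the log2 scale were 16 of the 17, and within 1.1-fold 11. Among the 9 enzymes above 100 RPKM, 7 (77.8%) were within 1.1-fold, where 37.6% of the 394 genes at that level were. All 9 were within 0.32 of 0 on the log2 scale, beside 78.9% of those 394 genes.

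In the first phase of glycolysis, 8 of 9 enzymes had values above 0 (median 0.13), beside 51.0% of all genes. With the trend in GC content, transcript length and level removed, as described below, 4 of the 9 were above 0 and the median was -0.01. HK2 (chromosome 2, 75061108 to 75120486, hg19), with 21.5 RPKM, stood in the authors' deposited table at 0.46 on the log2 scale, with an implied SE of 0.88 (unadjusted p = 0.599). HK1 had 0.24 with an SE of 1.85. The phosphofructokinase genes PFKP, PFKL and PFKM had 0.29, 0.23 and 0.11, with SEs of 0.94, 0.94 and 0.89. ALDOA had 0.13, TPI1 0.10 and ALDOC 0.03. GPI, at -0.08, was the 1 enzyme of this phase below 0 in the authors' deposited table. SLC2A1 stood at 0.17 (implied SE 1.13).

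The enzymes that set the level of fructose 2,6-bisphosphate, the strongest activator of phosphofructokinase, were spread widest. PFKFB3 (chromosome 10, 6186881 to 6277495, hg19), the isozyme with the strongest kinase side, had 10.4 RPKM in the authors' deposited table and a log2 fold change of 0.59, 1.51-fold higher (implied SE 0.98). PFKFB4 (chromosome 3, 48555117 to 48599448) had -0.76, 1.69-fold lower, at 1.12 RPKM and with an SE of 1.85. PFKFB2, the heart isozyme, had 0.22 at 1.09 RPKM (SE 1.49). PFKFB2 overlaps YOD1 on the opposite strand, which had 2.44 RPKM; the strand setting of the counting is not given, so reads of the overlap cannot be told apart. Of all genes from 1 to 2 RPKM, the range of PFKFB4 and PFKFB2, 19.4% were past 1.5-fold in either direction. From 5 to 20 RPKM, the range of PFKFB3, 6.72% were. The difference between PFKFB3 and PFKFB4 was not tested.

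In the second phase of glycolysis, all 6 enzymes were within 1.1-fold. ENO1 and GAPDH both had 0.04, PGAM1 0.07 and PKM 0.08, and PGK1 and ENO2 had -0.12 and -0.08 in the authors' deposited table. Their implied SEs ran from 0.94 to 1.34. GAPDH and ENO1 are common reference genes in other assays, and here their folds were 1.03 each.

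At the exit of the pathway, fold changes of both signs were found. LDHA, the subunit that favours lactate formation, had -0.16 and LDHB -0.27 in the authors' deposited table (implied SE 1.05 and 1.03). SLC16A1, the gene of the lactate carrier MCT1, had -0.04 at 24.5 RPKM. SLC16A3 (chromosome 17, 80186273 to 80219005, hg19) encodes MCT4, which exports lactate from strongly glycolytic cells, and had 0.64 at 10.0 RPKM, 1.56-fold higher with an SE of 1.45. SLC16A3 overlaps the kinase gene CSNK1D on the opposite strand, which had 14.4 RPKM in the authors' deposited table and a log2 fold change of 0.14. PDK1 and PDK3 encode kinases that switch off pyruvate dehydrogenase and so keep pyruvate out of mitochondria. PDK1 had -0.44 at 4.73 RPKM (SE 0.95) and PDK3 0.19 at 1.38 RPKM (SE 1.85).

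Among the subunits and regulators of HIF, 2 of 5 measured genes were above 0. HIF1A, which encodes the oxygen-sensitive subunit, had 0.11 in the authors' deposited table at 4.26 RPKM, and ARNT had -0.22 at 16.4 RPKM. EGLN1, the gene of the main oxygen sensor PHD2, had -0.19, and EGLN2 had 0.41 (implied SE 0.93 each). VHL had -0.47 at 21.3 RPKM (SE 0.95). HIF activity is set mainly by the stability of the alpha subunit protein, which RNA does not measure.

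The other HIF targets were all on one side. Each of the 6 had a value below 0, as did 49.0% of all genes, with a median of -0.44 beside 0.01 over all genes. At least 1.5-fold lower were 2 of the 6 (33.3%), beside 4.95% of all genes; the 6 were chosen with earlier results known, and none passed the test. BNIP3 (chromosome 10, 133781578 to 133795435, hg19), a mitochondrial receptor for the removal of mitochondria by autophagy, had 9.95 RPKM in the authors' deposited table and a log2 fold change of -0.81, 1.76-fold lower (implied SE 1.38, unadjusted p = 0.557). Its relative BNIP3L, which clears mitochondria from maturing red cells, had -0.68 at 7.78 RPKM, 1.60-fold lower (SE 1.23, unadjusted p = 0.582). ADM, the gene of the vessel-dilating peptide adrenomedullin, had -0.44 at 8.12 RPKM and the stress gene NDRG1 -0.37 at 24.0 RPKM. VEGFA, the vascular growth factor, had -0.11 at 15.1 RPKM. ANKRD37 had -0.43 at 2.06 RPKM (SE 1.84). ANKRD37 overlaps UFSP2 on the opposite strand, which had 8.22 RPKM and -0.58 in the authors' deposited table, so that reads of the overlap cannot be assigned to either gene. Among other members known to answer HIF, PDK1, PFKFB4, EGLN1, LDHA and PGK1 were also below 0, and HK2, PFKFB3, SLC16A3 and SLC2A1 above it. HIF also raises glycolytic genes, and of the 17 enzymes from hexokinase to lactate dehydrogenase 12 were above 0 and 5 below. With the trend removed, as described below, 7 were above 0 and 10 below. Each of these genes lay within 1 implied SE of 0 as deposited, and a shared direction was not tested.

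Promoter letters were set beside these values, since HIF binds short sites. The core of a hypoxia response element is ACGTG or GCGTG. Both were searched on both strands in RefSeq promoters (build GRCh38.p14, 250 bases before to 50 after a start), which were found for 31 of the 38 members with 59 starts. Either core was in 38 of the 59 promoters (64.4%), beside 48.4% of all 35116 promoters. CACGTG, the E-box that factors such as MYC bind, holds an ACGTG on each strand and was counted as 2 cores; it was in 9 of the 59 (15.3%), beside 7.26% of all. By gene, 28 of 31 members had a core at 1 start or more, without ARNT, EGLN3 and PGAM1, and 52.4% of 27305 genes of all kinds did. Genes with more starts had more chances to hold one. A match of letters is a description and not a bound site.

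The 250 bases before a start are shown for the members past 1.5-fold with a RefSeq entry and for LDHA and PGK1, 2 enzymes with several cores and fold changes near 1. Where a gene has several starts, the one with the most cores is given. They read 5′ to 3′ on the gene's strand, and capitals mark ACGTG or GCGTG on either strand.
BNIP3 (chr10:131981924-131982173, minus strand): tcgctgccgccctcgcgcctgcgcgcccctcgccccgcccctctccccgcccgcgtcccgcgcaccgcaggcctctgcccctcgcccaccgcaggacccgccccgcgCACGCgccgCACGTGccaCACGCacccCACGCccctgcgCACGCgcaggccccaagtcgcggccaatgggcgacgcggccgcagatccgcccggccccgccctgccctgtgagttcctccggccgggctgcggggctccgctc
PFKFB4 (chr3:48556804-48557053, minus strand): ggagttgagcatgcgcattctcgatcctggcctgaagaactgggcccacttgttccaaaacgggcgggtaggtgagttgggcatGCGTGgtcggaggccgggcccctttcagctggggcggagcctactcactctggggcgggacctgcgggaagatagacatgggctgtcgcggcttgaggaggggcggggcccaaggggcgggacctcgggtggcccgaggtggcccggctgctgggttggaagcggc
PFKFB3 (chr10:6202682-6202931, plus strand): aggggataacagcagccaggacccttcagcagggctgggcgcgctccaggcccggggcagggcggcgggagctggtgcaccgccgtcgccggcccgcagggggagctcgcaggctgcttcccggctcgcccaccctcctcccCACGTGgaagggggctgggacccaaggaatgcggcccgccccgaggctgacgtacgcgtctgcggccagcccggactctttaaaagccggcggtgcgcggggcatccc
SLC16A3 (chr17:82234649-82234898, plus strand): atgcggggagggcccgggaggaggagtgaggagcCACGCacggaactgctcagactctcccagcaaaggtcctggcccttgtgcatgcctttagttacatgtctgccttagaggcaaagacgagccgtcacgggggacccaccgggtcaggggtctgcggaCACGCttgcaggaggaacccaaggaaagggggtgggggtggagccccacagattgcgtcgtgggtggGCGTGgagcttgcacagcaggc
LDHA (chr11:18394313-18394562, plus strand): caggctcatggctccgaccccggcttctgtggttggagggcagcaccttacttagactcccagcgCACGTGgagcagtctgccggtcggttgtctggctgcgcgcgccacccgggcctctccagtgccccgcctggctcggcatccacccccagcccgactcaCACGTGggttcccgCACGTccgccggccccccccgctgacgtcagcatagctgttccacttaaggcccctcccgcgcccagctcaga
PGK1 (chrX:78103998-78104247, plus strand): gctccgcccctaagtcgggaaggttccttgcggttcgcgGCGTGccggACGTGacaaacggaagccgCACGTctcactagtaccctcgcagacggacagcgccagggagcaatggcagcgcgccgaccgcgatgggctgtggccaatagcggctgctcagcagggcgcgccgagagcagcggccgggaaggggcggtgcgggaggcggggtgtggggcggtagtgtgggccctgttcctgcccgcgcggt

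The BNIP3 stretch held 6 cores, counting CACGTG on both strands, all between positions -143 and -100 from the start, and that of PFKFB4 held 1. PFKFB3 had a single CACGTG at -108 to -103 and SLC16A3 had 3 GCGTG cores and no CACGTG. LDHA, with 5 cores, and PGK1, with 3, had log2 fold changes of -0.16 and -0.12 in the authors' deposited table. By number of cores, BNIP3 with 6 stood at -0.81, LDHA with 5 at -0.16, PGK1 with 3 at -0.12 and SLC16A3 with 3 at 0.64. PFKFB3, with 2 when its CACGTG is counted on both strands, stood at 0.59, and PFKFB4 with 1 at -0.76. The starts were picked for their cores and not for their use in these cells. Among members not shown, HK2, ALDOC, ANKRD37 and PFKP had 3 or more cores at 1 start, the 50 bases after it included. HK2 with 6 stood at 0.46, ALDOC with 5 at 0.03, ANKRD37 with 3 at -0.43 and PFKP with 3 at 0.29. A relation between cores and fold changes was not tested.

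Members differed in their spread as well as in their level. Median implied SEs were highest at low levels, so each was set against genes in the same range of RPKM. Of the 36 members, 13 were above the upper quartile of their range and 9 below the lower quartile, where each holds 25% of genes by definition. In the range from 5 to 20 RPKM, which held 4318 genes with a median SE of 1.01 and an upper quartile of 1.15, those above it were ADM at 1.58, SLC16A3 at 1.45, BNIP3 at 1.38 and BNIP3L at 1.23. In the range from 1 to 2 RPKM (upper quartile 1.84) HK1, PDK3 and PFKFB4 were at 1.85. Above 100 RPKM, where the median was 1.01 and the upper quartile 1.03, ALDOA, ENO1, LDHA and TPI1 were between 1.05 and 1.07. For comparison, of 4 genes that translocations switch on in 1 of the lines, 3 had SEs of 1.83 (CCND1, of KMS12PE), 2.002 (FGFR3, of KMS11) and 1.94 (MAF, of KMS11). The other, WHSC1 of KMS11, had an SE of 1.04 at 22.7 RPKM. Levels in each line were not analysed here, so how far any of the 4 was confined to 1 line is not known. So 3 of the 5 members past 1.5-fold, namely SLC16A3, BNIP3 and BNIP3L, had more spread than most genes of 5 to 20 RPKM, and PFKFB4 more than most of 1 to 2 RPKM. Spread between the lines and between the treatments within a line cannot be told apart in these values.

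**Figure D3:**
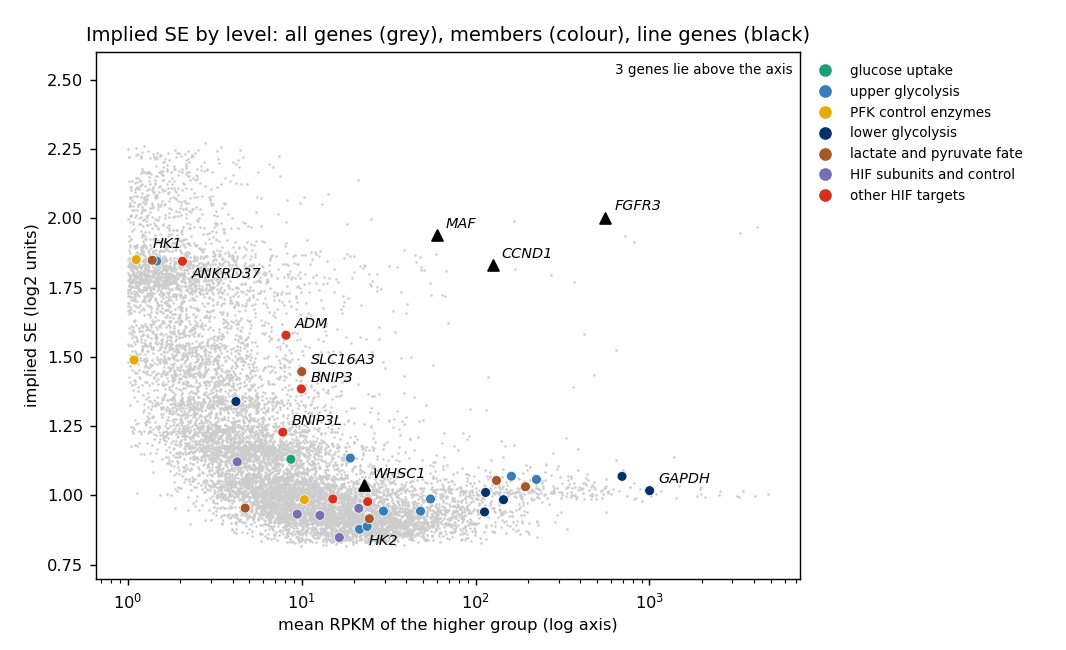
Implied SE in log2 units (vertical axis) against level (horizontal axis, mean RPKM of the higher treatment group, log scale) for 11324 genes in grey, members in colour by role and 4 genes of known translocations as black triangles; 3 genes lie above the axis. ADM at 1.58, SLC16A3 at 1.45 and BNIP3 at 1.38 stand above most genes of their level, and GAPDH at 1.02 lies among the genes of its level.

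Fold changes in this comparison moved with the GC content of transcripts, and members differ in it. Over 5 equal groups of genes ordered by GC content, median log2 fold changes ran from -0.17 in the poorest to 0.23 in the richest. Across the 36 members, which share the same 4 libraries, Spearman's rho between GC content and fold change was 0.36, beside 0.47 over 11104 genes. SLC16A3 (64.7% GC) and PFKFB3 (60.3%) are rich in GC, while LDHB (43.7%), PDK1 (43.1%) and PGK1 (43.1%) are poor in it. Once a joint trend in GC content, transcript length and level was taken out, SLC16A3 went from 0.64 to 0.38 and PFKFB3 from 0.59 to 0.38, so that 0 members remained 1.5-fold higher. LDHB went from -0.27 to -0.14 and PDK1 from -0.44 to -0.28. The values of 8 members changed sign (PFKL, ALDOA, ALDOC, TPI1, PGK1, PGAM1, PKM and SLC16A1), each within 0.23 of 0 before and after, and the median of the first phase of glycolysis went from 0.13 to -0.01.

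The other HIF targets kept their side. All 6 were below 0 with the trend removed, and their median went from -0.44 to -0.56. BNIP3 went from -0.81 to -0.91, ADM from -0.44 to -0.61 and NDRG1 from -0.37 to -0.54. BNIP3L went from -0.68 to -0.58, just inside 1.5-fold. PFKFB4 stayed at -0.77, so that the 3 members at least 1.5-fold lower were then BNIP3, PFKFB4 and ADM. HK2 was at 0.39 with the trend removed.

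**Figure D4:**
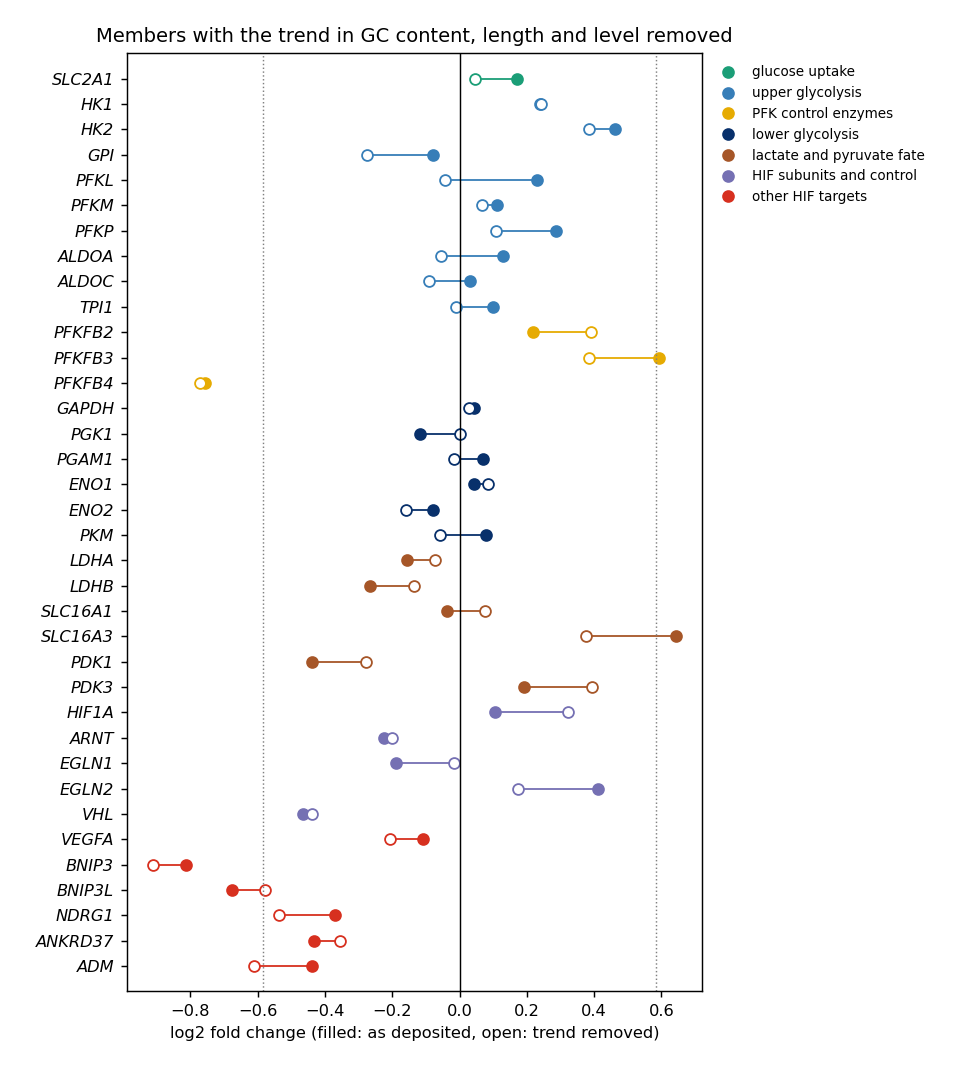
Log2 fold change of the 36 members (horizontal axis) as deposited (filled) and with the trend in GC content, transcript length and level removed (open), coloured by role, with dotted lines at 1.5-fold. SLC16A3 and PFKFB3 move inside 1.5-fold, and the 6 other HIF targets stay below 0.

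Related HIF genes outside the members lay on both sides of 0. Of a wider list of HIF targets, 22 were at or above 1 RPKM, with 10 above 0 and 12 below it, a median of -0.04 and a range from -1.01 to 0.50. At least 1.5-fold lower were 2 of them (9.09%) and 0 were as much higher, beside 4.95% of all genes in each direction. CA9, the acid-regulating carbonic anhydrase that is a standard marker of hypoxia, had -1.01 in the authors' deposited table at 2.04 RPKM, with an implied SE of 2.17. DDIT4, an inhibitor of mTORC1 that also answers other stresses, had -0.71 at 341 RPKM (SE 1.07). The sterol regulator INSIG2 had -0.58 and the nuclear receptor RORA -0.55. The 9 other genes of the HIF pathway at or above 1 RPKM lay between -0.17 and 0.22, with CREBBP, a coactivator, at 0.22 and ARNTL, the clock gene, at -0.17.

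The routes that feed from or into glycolysis held 0 genes past the test as well. Other isozymes and sugar carriers had a median of 0.13 over 11 genes. At least 1.5-fold higher were 3 of them, or 27.3%, beside 4.95% of all genes: SLC2A6 at 0.74, the mitochondrial phosphatase PGAM5 at 0.68, which despite its name is no glycolytic enzyme, and SLC2A4, the insulin-responsive carrier GLUT4, at 0.66 in the authors' deposited table. Their implied SEs were 1.86, 0.98 and 1.89. Of 11 genes of pyruvate entry and pyruvate dehydrogenase, 3 were above 0 and 8 (72.7%) below, beside 49.0% of all genes below 0, and the median was -0.14. At least 1.5-fold higher and lower was 1 gene each (9.09%, beside 4.95% of all genes in each direction). The pyruvate carboxylase gene PC had 0.76 (SE 1.13), and DLD, the shared dehydrogenase subunit, -0.64 (SE 0.85). Removing the trend left PC at 0.54 and DLD at -0.49, both inside 1.5-fold. Citric acid cycle genes had a median of -0.04 over 17 genes, none past 1.5-fold, with OGDH at 0.44 and DLST at -0.36. The pentose phosphate pathway lay between -0.20 (H6PD) and 0.17 (TKT) over 8 genes. In gluconeogenesis and glycogen turnover, 1 of 8 genes (12.5%, beside 4.95% of all genes) was at least 1.5-fold lower: PCK2, the mitochondrial phosphoenolpyruvate carboxykinase, at -0.71 in the authors' deposited table (SE 0.90, 50.2 RPKM). PCK2 stood at -0.93 with the trend removed.

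**Figure D5:**
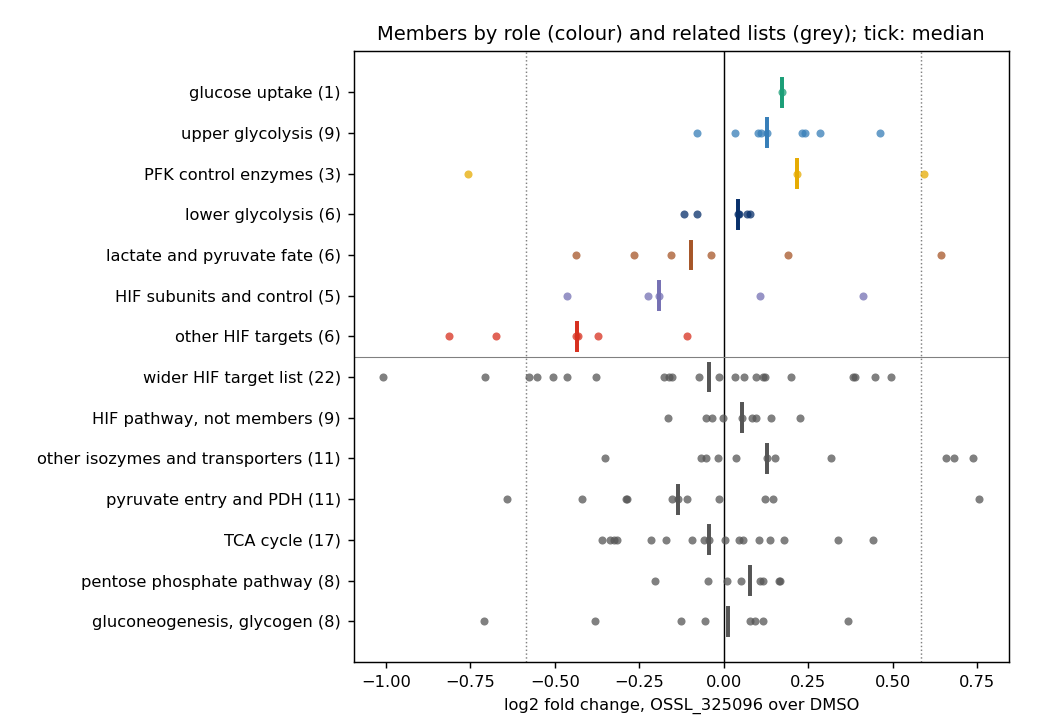
Horizontal axis, log2 fold change (OSSL_325096 over DMSO) of members by role (colour, above the line) and genes of related lists (grey, below it), each point a gene of at least 1 RPKM, with the number of genes in brackets, ticks at the medians and dotted lines at 1.5-fold. The 6 other HIF targets among the members lie below 0 (median -0.44), while the wider list of 22 HIF targets lies on both sides (median -0.04).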

How the data were processed

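RNA was measured in 4 libraries, 2 per treatment. Per the labels' protocols, mRNA was captured with oligo(dT) beads; per the series' design text, reads were mapped to hg19 and RPKM values and the comparison were made by the authors in Biomedical Genomics Workbench 5. No source used here gives the counting rule, strand setting or statistical model. Of the deposited table, 6 columns of values were used, none of them of a single library. These were the higher group's mean (taken as RPKM from the design text, since the header names no unit), the log2 fold change, its signed fold score, and p-values (unadjusted, false discovery rate, Bonferroni), all made by the authors. A limma fit, a fit with the cell line as a block and leaving out a line had been planned. They need single libraries, which were not analysed here, so the deposited values took their place.

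Computed here were Benjamini-Hochberg adjusted p-values over genes of at least 1 RPKM, implied SEs, counts past 1.5-fold, and residuals from terms up to degree 3 in GC content, length (GENCODE 44 transcripts, 98.1% of genes) and level, which took 15.8% of the variance. The adjustment, the implied SE and the trend removal were run on simulated data with smaller SEs and p-values from a normal test. That run checks the arithmetic and not the authors' model. All 38 member IDs matched GENCODE 44 at the same place and strand. In all, 16 members overlapped another gene above 0 RPKM. Besides those given above, SENP1 (4.80 RPKM) overlaps PFKM, RP11-192H23.4 (4.24) ALDOC, LRRC23 (1.51) ENO2, AC093818.1 (0.997) PDK1 and PNMA2 (0.978) BNIP3L. Reads of these overlaps cannot be told apart either. Overlapping genes at lower shares of a member's level are not listed. A planned protein comparison was not run. Python 3.11.15, pandas 2.3.3, numpy 2.4.6 and scipy 1.17.1 were used. The members and lists were chosen with earlier results of these data known. All members of at least 1 RPKM are named, and of each related list up to 4 genes with the largest absolute fold change.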

Additional observations from a re-analysis of the deposited data

How the results depend on the processing

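The number of members at least 1.5-fold higher, 2 as reported, was 1 with fold changes centred on the median of all genes (without PFKFB3) and 0 with a joint trend in GC content, transcript length and level taken out. The number at least 1.5-fold lower, 3 as reported, was 2 at a minimum of 5 RPKM, which leaves out PFKFB4, and 3 under both rescalings, though with ADM in place of BNIP3L once the trend was removed. By construction, a lower limit of 0.32 on the log2 scale gave 4 higher and 8 lower, and a limit of 2-fold gave 0 and 0. With no minimum level the counts were 2 and 3. The median over the members stayed between -0.03 (trend removed) and 0.04, and 0 members passed an adjusted p of 0.05 under each adjustment run, the authors' included. With the trend removed, 8 of 36 fold changes changed sign, none of them past 1.5-fold, and 4 calls at 1.5-fold changed. Shifts ran from -0.27 to 0.22 on the log2 scale, beside a median absolute log2 fold change of 0.20 among the members. No value moved by more than 0.29 of its implied SE, but these SEs are large. Centring changed no sign.

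No paired analysis was run because single libraries were not analysed here. For the same reason, leaving out a line, other pseudocounts and a count model were not run. Each treatment had 2 libraries from different lines, and depth is unknown. At the members' median implied SE, an unadjusted p of 0.05 would take a 4.02-fold difference, and passing an adjusted p a larger one.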
